A study of Homo sapiens with 6 samples.

Results

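The glycolytic and hypoxia-inducible genes of HEC-1B cells were described as a set of 40 genes, listed by symbol from general knowledge of glycolysis and of the targets of the hypoxia-inducible factor (HIF). All 40 of 40 symbols were found among the 23284 symbols of each deposited table, PKM under its older symbol PKM2. Of these, 23 encode glucose and lactate transporters, glycolytic enzymes or their regulators, and 17 are other HIF targets or parts of the HIF pathway. HEC-1B is a human endometrioid carcinoma line, and the labels give no treatment, oxygen tension or other manipulation for any group. RNA was sequenced in 6 libraries, 2 for each of 3 groups. The high-potential accelerated libraries came from HEC-1B cells titled as having high ALDH potential, with an accelerated transition to the ALDH-high state. The HEC-1B accelerated libraries carry the accelerated label without the high-potential label, and the HEC-1B high-to-low libraries are titled ALDH-high to low. ALDH is aldehyde dehydrogenase, whose isoform ALDH1A1 marks stem-like tumour cells, and the series asks how expression differs between cells with and without an accelerated passage from ALDH1A1-low to ALDH1A1-high. The library names of both high-potential libraries hold a tag, a2-PAM, that no source used here explains, so whether these cells are a clone or a treated line is not given. The library names of all 3 groups contain "ALDH-high", the high-to-low group included.

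Glycolysis splits glucose into pyruvate in the cytosol, and lactate dehydrogenase turns pyruvate into lactate when it is not passed to mitochondria. HIF is a pair of transcription factor subunits whose alpha subunit, encoded by HIF1A, is hydroxylated and degraded when oxygen is plentiful. When oxygen is scarce it accumulates, binds a short DNA element near its targets and raises transcription of most glycolytic genes, of angiogenic factors and of genes for acid handling, mitophagy and collagen modification. That control acts on the HIF1A protein, which RNA sequencing does not measure.

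Values are FPKM, fragment numbers scaled for transcript length and library size, so that levels can be compared between genes. Each library had 14786 to 15386 genes above 0. Relative depth was recovered from the steps between low values and lay between 0.807 and 1.07, with high-potential replicate 1 set to 1. ALDH1A1 read 352.5 and 303.6 FPKM in high-potential accelerated, 26.7 and 316.9 FPKM in the HEC-1B accelerated and 28.4 and 9.44 FPKM in the HEC-1B high-to-low libraries, so replicate 1 of the HEC-1B accelerated group lay inside the high-to-low range and against its label. The epithelial markers KRT8 and KRT18 were present in every library and EPCAM lay between 2.16 and 10.6 FPKM, but CDH1, the E-cadherin gene, did not exceed 0.0868 FPKM. Markers of leukocytes reached at most 1.79 FPKM, of endothelium 0.920 and of fibroblasts 0.414, and PECAM1, DCN and CD3E were listed at 0 throughout. Whether replicates are separate cultures is not given, and p-values then rest on spread among single libraries that may be technical.

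Differences were tested on log2(FPKM + 1) with 1 two-sided limma model over all 6 libraries and the 12135 genes that reached 1 FPKM in 2 or more of them. Calls required an adjusted p (Benjamini-Hochberg, over all those genes) under 0.05. The fit held 36 members, 22 glycolytic and 14 other HIF genes; SLC2A3, CA9, EGLN3 and ANKRD37 fell below the filter. PLOD2 was the single member called, lower in high-potential cells than in HEC-1B high-to-low cells, where 0.799% of all genes were called, and than in HEC-1B accelerated cells, where 0.494% were. The glycolytic genes gave 0 calls with limma in the 4 comparisons made. With the replicate number as a block, which no label calls a pairing, BNIP3, CA12, PFKFB4 and PGAM1 were also called lower against high-to-low. That fit called 944 genes there. Against HEC-1B accelerated it called 546 genes, BNIP3 and CA12 lower and P4HA2 higher among them.

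PLOD2, a lysyl hydroxylase that prepares collagen for stable cross-links and a HIF target, had 6.85 and 5.62 FPKM in high-potential accelerated libraries. It was 36.0 and 30.6 FPKM in the HEC-1B accelerated libraries and 45.7 and 37.1 FPKM in the HEC-1B high-to-low libraries. Group means were 6.24 ± 0.870, 33.3 ± 3.78 and 41.4 ± 6.06 FPKM in that order (SD, n = 2 each). Both high-potential libraries lay below all 4 others. PLOD2 was lower than in HEC-1B high-to-low cells (-2.55 in log2 units, SE 0.211, limma adjusted p = 0.0107), and against HEC-1B accelerated it was -2.25 (SE 0.211, limma adjusted p = 0.0166). Between HEC-1B accelerated and HEC-1B high-to-low it was -0.30 (limma adjusted p = 1), and for the mean of both accelerated groups against high-to-low it was -1.42 (SE 0.183, limma adjusted p = 0.120). The call against high-to-low was lost without either high-potential or either high-to-low library, and the call against HEC-1B accelerated without either library of the groups it compares, while the log2 differences stayed between -2.69 and -2.12 in those fits. In the first of these comparisons the high-potential label and the accelerated transition differ together and cannot be told apart, since there is no high-potential high-to-low group.

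The 250 bases upstream of the PLOD2 start are shown because it is the called member, beside those of BNIP3, CA12 and PFKFB4, whose values were also low in high-potential cells, and of PGK1 and ENO1, abundant glycolytic members without a call. Sequences are from RefSeq (GRCh38.p14), written 5′ to 3′ along the gene, and capitals mark the core of the hypoxia response element, ACGTG or GCGTG, on either strand; on the opposite strand the cores read CACGT and CACGC.
PLOD2: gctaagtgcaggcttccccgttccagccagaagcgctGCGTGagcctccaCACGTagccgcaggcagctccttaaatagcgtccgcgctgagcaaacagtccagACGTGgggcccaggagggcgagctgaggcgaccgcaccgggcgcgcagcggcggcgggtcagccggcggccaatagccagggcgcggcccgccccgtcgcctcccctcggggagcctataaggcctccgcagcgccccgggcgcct
BNIP3: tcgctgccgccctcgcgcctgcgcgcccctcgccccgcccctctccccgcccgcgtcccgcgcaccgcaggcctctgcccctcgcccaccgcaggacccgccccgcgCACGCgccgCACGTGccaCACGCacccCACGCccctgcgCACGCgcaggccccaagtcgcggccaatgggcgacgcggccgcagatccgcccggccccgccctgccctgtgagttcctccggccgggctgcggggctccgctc
CA12: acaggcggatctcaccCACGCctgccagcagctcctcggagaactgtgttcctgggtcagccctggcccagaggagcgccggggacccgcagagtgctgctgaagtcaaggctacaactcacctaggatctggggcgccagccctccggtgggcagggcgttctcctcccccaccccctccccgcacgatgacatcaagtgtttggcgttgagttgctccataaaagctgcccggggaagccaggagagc
PFKFB4: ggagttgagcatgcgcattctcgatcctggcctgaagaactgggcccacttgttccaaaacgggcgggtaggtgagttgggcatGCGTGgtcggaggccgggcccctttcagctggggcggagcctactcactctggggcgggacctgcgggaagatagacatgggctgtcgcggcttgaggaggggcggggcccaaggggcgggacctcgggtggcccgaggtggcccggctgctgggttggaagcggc
PGK1: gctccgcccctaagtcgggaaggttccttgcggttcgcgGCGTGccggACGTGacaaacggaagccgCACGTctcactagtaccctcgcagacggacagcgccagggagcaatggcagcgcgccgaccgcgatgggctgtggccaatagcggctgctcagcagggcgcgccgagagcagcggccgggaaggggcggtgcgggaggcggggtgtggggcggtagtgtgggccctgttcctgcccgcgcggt
ENO1: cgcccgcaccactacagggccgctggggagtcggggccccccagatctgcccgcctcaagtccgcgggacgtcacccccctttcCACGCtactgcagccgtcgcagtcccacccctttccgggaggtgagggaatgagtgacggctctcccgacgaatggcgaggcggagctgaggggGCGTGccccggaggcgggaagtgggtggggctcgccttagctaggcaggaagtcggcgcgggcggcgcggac

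The PLOD2 window lies at chr3:146161185-146161434 on the minus strand and holds 3 cores, the nearest beginning 146 bases before the start. BNIP3 lies at chr10:131981924-131982173 (minus) and holds 6 matches, among them the palindrome CACGTG, which counts on both strands. CA12 at chr15:63381847-63382096 (minus) and PFKFB4 at chr3:48556804-48557053 (minus) hold 1 GCGTG core each. PGK1 at chrX:78103998-78104247 (plus) holds 3 cores and ENO1 at chr1:8878687-8878936 (minus) holds 2. Of the members, 36 had an entry in the promoter table, and 30 of these (83.3%) held a core in at least 1 listed window, against 56.8% of the 15842 protein-coding genes in that table; P4HA2, PGAM1, PKM and SLC2A1 were among those without. Members were chosen as known HIF targets and some have several windows, so these shares describe the windows and say nothing of binding in these cells.

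**Figure D1:**
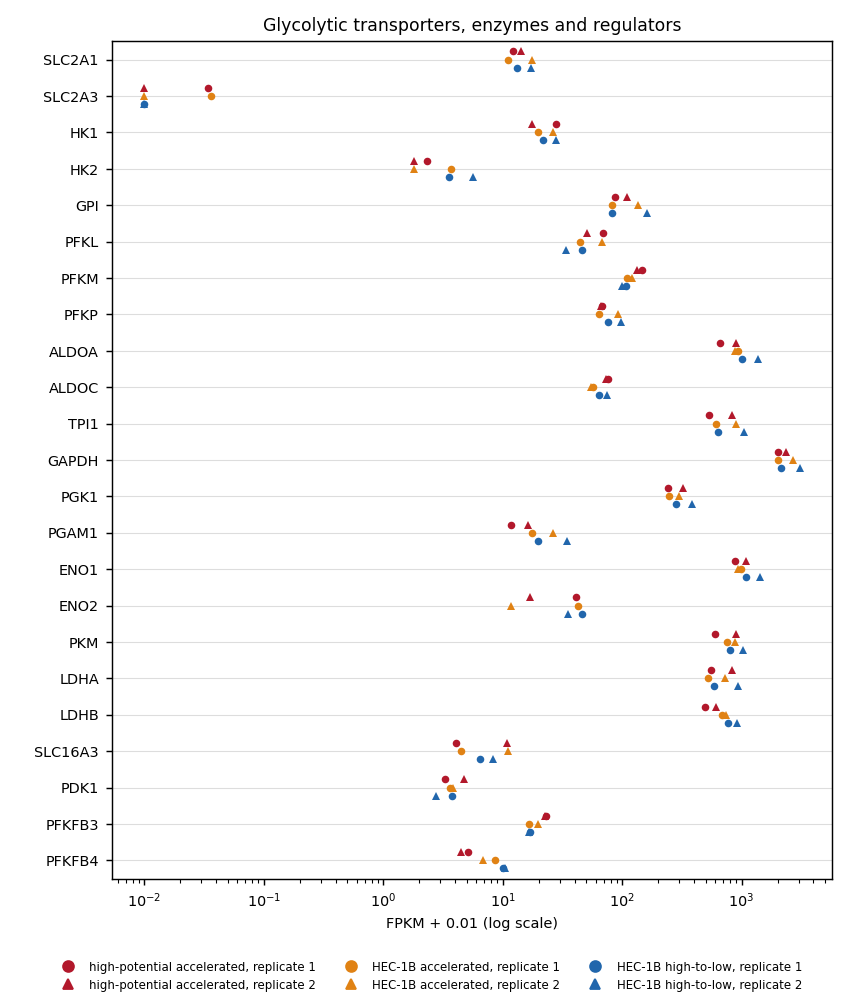
Level of each of 23 glycolytic genes in each of 6 libraries, in pathway order from top to bottom; the x axis is FPKM + 0.01 on a log scale, colours are groups and shapes are replicate numbers, 1 point per library. Points of the 3 groups intermingle for most genes, GAPDH lies highest at 2033 to 3055 FPKM, and SLC2A3 lies at the left edge.

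Of the 2 glucose transporters in the set, SLC2A1, the widespread form, was the expressed one. It had 12.3 and 14.2 FPKM in high-potential accelerated, 11.2 and 17.7 in HEC-1B accelerated and 13.1 and 17.3 in HEC-1B high-to-low libraries, and the groups overlapped. SLC2A3, the high-affinity transporter, was at most 0.0262 FPKM and was listed at 0 in 4 libraries. HK1, the constitutive hexokinase that traps glucose as its phosphate, was 27.7 and 17.6 FPKM in high-potential, 19.8 and 26.5 in HEC-1B accelerated and 21.95 and 28.1 in high-to-low libraries, again overlapping. HK2, the inducible hexokinase and a HIF target, was 2.30 and 1.78 FPKM in high-potential, 3.69 and 1.80 in HEC-1B accelerated and 3.57 and 5.65 in high-to-low libraries. Both high-potential values lay below both high-to-low values (log2 difference -0.86, SE 0.340, limma adjusted p = 0.255). HK1 made up 83.3 to 93.6% of the summed FPKM of both hexokinases.

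GPI, the isomerase that follows hexokinase, was 86.7 and 109.0 FPKM in high-potential, 81.7 and 135.3 in HEC-1B accelerated and 82.9 and 161.4 in high-to-low libraries. In each group replicate 2 was the higher, and the groups overlapped. Phosphofructokinase, the committed step, is encoded by a muscle, a liver and a platelet type gene, all of them expressed. PFKM, the muscle type and the most abundant, was 146.7 and 133.7 FPKM in high-potential, 109.0 and 121.1 in HEC-1B accelerated and 107.6 and 99.7 in high-to-low libraries. Both high-potential libraries lay above the other 4, and the log2 difference from high-to-low was 0.43 (SE 0.178, limma adjusted p = 0.271). PFKL, the liver type, was 69.4 and 50.6 FPKM in high-potential, 44.1 and 67.6 in HEC-1B accelerated and 45.9 and 33.7 in high-to-low libraries, with high-potential above high-to-low but overlapping HEC-1B accelerated. PFKP, the platelet type, supplied 23.7 and 26.3% of the FPKM of this step in high-potential, 29.6 and 32.8% in HEC-1B accelerated and 33.2 and 42.3% in high-to-low libraries. These shares did not overlap between any groups, but they were compared after the values were seen and were not tested.

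PFKFB enzymes make and break the allosteric activator of phosphofructokinase, and both listed forms were expressed. PFKFB3, the strongly kinase-active form, was 23.0 and 22.6 FPKM in high-potential, 16.7 and 19.7 in HEC-1B accelerated and 17.0 and 16.7 in high-to-low libraries. PFKFB4, another HIF-responsive form, was 5.09 and 4.43 FPKM in high-potential, 8.54 and 6.79 in HEC-1B accelerated and 9.98 and 10.5 in high-to-low libraries. High-potential libraries were thus highest for PFKFB3 and lowest for PFKFB4. PFKFB4 had the lowest adjusted p of the glycolytic genes, at -0.97 log2 units from high-to-low (SE 0.214, limma adjusted p = 0.0977) and -0.58 from HEC-1B accelerated (SE 0.214, limma adjusted p = 0.294), and did not pass. PFKFB3 made up 81.9 and 83.6% of their summed FPKM in high-potential, 66.2 and 74.4% in HEC-1B accelerated and 63.0 and 61.3% in high-to-low libraries.

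**Figure D2:**
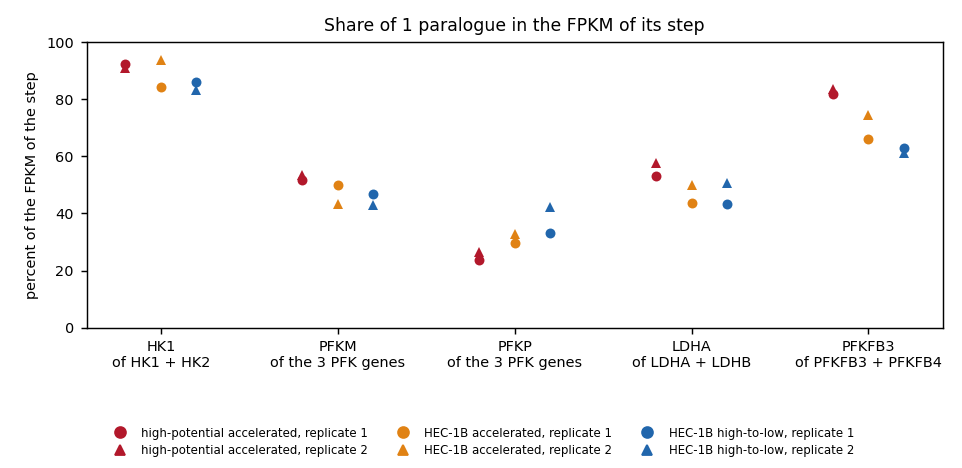
Percent of the FPKM of a step that 1 paralogue supplies, for 5 choices on the x axis, 1 point per library, with colours for groups and shapes for replicate numbers. The high-potential points are highest for PFKFB3 (81.9 and 83.6%) and for LDHA (53.2 and 57.7%) and lowest for PFKP (23.7 and 26.3%).

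The lower part of the pathway held the most abundant transcripts. ALDOA, the main aldolase, was 660.2 and 891.3 FPKM in high-potential, 937.1 and 874.2 in HEC-1B accelerated and 999.1 and 1369 in high-to-low libraries; high-potential lay below high-to-low, and ALDOA made up 89.6 to 94.8% of aldolase FPKM beside ALDOC. TPI1, GAPDH and PGK1, which interconvert the triose phosphates and form the first ATP, averaged 757.4, 2377 and 295.9 FPKM over the 6 libraries, and none reached an unadjusted p under 0.05 in any comparison. GAPDH ranked between the 5th and the 14th most abundant symbol in the libraries. PGAM1, the mutase, was 11.8 and 16.3 FPKM in high-potential, 17.7 and 26.6 in HEC-1B accelerated and 19.8 and 34.3 in high-to-low libraries. High-potential lay below both other groups (-0.86 against high-to-low, SE 0.340, limma adjusted p = 0.255). Leaving out high-to-low replicate 2 made that difference -0.48. The level of PGAM1 was far below those of its neighbours in the pathway; it has near-identical copies elsewhere in the genome, as do GAPDH, PGK1, ENO1, LDHA and others, and how fragments shared with such copies were counted is not given, so absolute levels of these genes are uncertain.

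ENO1, the ubiquitous enolase, was 876.4 and 1089 FPKM in high-potential, 980.2 and 931.3 in HEC-1B accelerated and 1099.6 and 1418 in high-to-low libraries. The accelerated libraries of both kinds lay below both high-to-low libraries, by a log2 difference of -0.35 for high-potential (limma adjusted p = 0.519). ENO2, the neuronal enolase and a HIF target, was 41.3 and 17.1 FPKM in high-potential, 42.5 and 11.8 in HEC-1B accelerated and 45.9 and 35.0 in high-to-low libraries. Here replicate 2 was the lower in each group, opposite to GPI, and the groups overlapped. PKM, pyruvate kinase, lay between 604.9 and 1036 FPKM, and the table does not separate its splice forms.

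Lactate dehydrogenase was expressed from both subunit genes at similar levels. LDHA, the subunit that HIF induces, was 559.2 and 832.7 FPKM in high-potential, 524.8 and 732.5 in HEC-1B accelerated and 584.5 and 936.4 in high-to-low libraries, with full overlap. LDHB was 492.2 and 609.7 FPKM in high-potential, 681.7 and 737.6 in HEC-1B accelerated and 769.1 and 910.8 in high-to-low libraries, with no overlap between any groups (-0.61 for high-potential against high-to-low, SE 0.231, limma adjusted p = 0.241). LDHA therefore made up 53.2 and 57.7% of the summed FPKM in high-potential libraries, 43.5 and 49.8% in HEC-1B accelerated and 43.2 and 50.7% in high-to-low libraries. SLC16A3, which exports lactate and is HIF-responsive, was 4.02 and 10.8 FPKM in high-potential, 4.49 and 11.1 in HEC-1B accelerated and 6.46 and 8.22 in high-to-low libraries. PDK1, a kinase that inhibits pyruvate dehydrogenase, stayed between 2.76 and 4.75 FPKM.

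**Figure D3:**
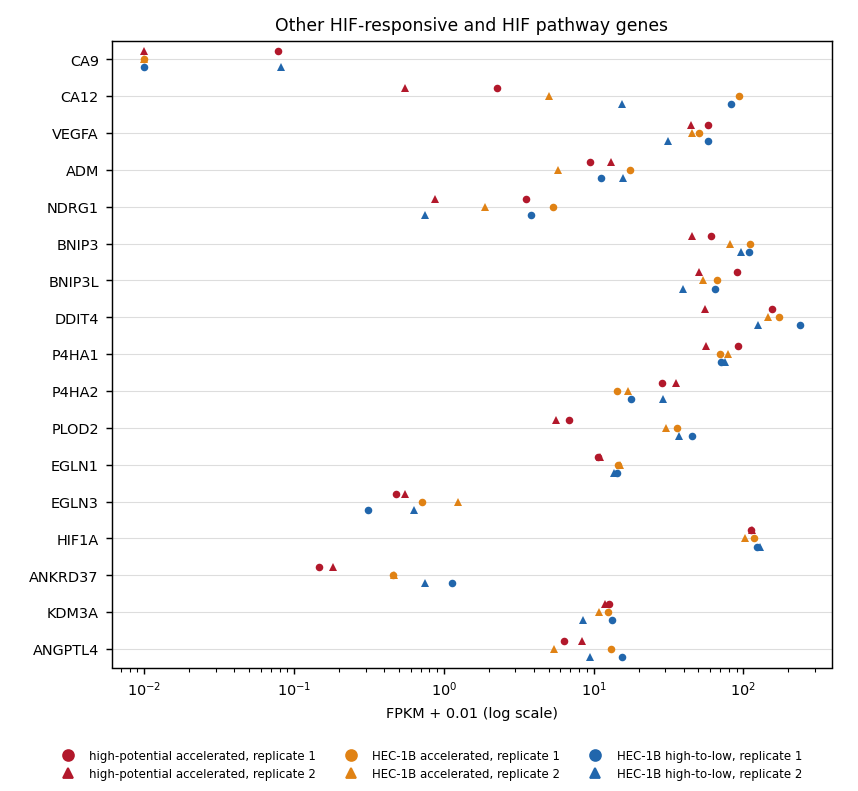
Level of each of 17 other HIF genes in each of 6 libraries; the x axis is FPKM + 0.01 on a log scale, colours are groups and shapes are replicate numbers, 1 point per library. The high-potential points stand left of all others for PLOD2 (6.85 and 5.62 FPKM), CA12, BNIP3, EGLN1 and ANKRD37, and CA9 lies at the left edge. Of all tested genes, 26.4% lay lower without overlap against high-to-low and 22.3% against HEC-1B accelerated. The share lower than both groups at once was not counted.

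Among the other HIF genes tested, the alpha subunit gene HIF1A and the oxygen sensor gene EGLN1 varied least. HIF1A was 112.3 and 114.7 FPKM in high-potential, 117.0 and 102.1 in HEC-1B accelerated and 122.5 and 128.2 in high-to-low libraries, a span of 1.26 times over all 6. EGLN1, the main oxygen-sensing prolyl hydroxylase that marks HIF1A for degradation, was 10.7 and 10.9 FPKM in high-potential, 14.6 and 14.96 in HEC-1B accelerated and 14.4 and 13.6 in high-to-low libraries. Both high-potential values were the lowest, but the log2 difference from HEC-1B accelerated, -0.41, did not pass (limma adjusted p = 0.371). EGLN3, an inducible hydroxylase that is itself a HIF target, was 0.470 and 0.538 FPKM in high-potential, 0.700 and 1.23 in HEC-1B accelerated and 0.303 and 0.619 in high-to-low libraries, too low for the filter.

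Carbonic anhydrases, which handle acid at the cell surface, differed widely in level. CA9, among the most strongly hypoxia-induced genes in many carcinomas, was listed at 0 in 4 libraries and reached at most 0.0722 FPKM. CA12, which is also regulated by estrogen in breast cells, was 2.26 and 0.543 FPKM in high-potential, 92.9 and 5.01 in HEC-1B accelerated and 82.3 and 15.4 in high-to-low libraries. The estrogen receptor gene ESR1 was listed at 0 in every library, and an estrogen effect was not tested. Every high-potential value lay below all 4 others, and the span of 171.1 times was the widest of the tested members. Replicates within a group differed by a factor of 4 or more, with replicate 2 at 0.241, 0.0540 and 0.187 of replicate 1 in the groups in that order. The log2 difference was -4.04 from high-to-low (SE 1.35, limma adjusted p = 0.196) and -3.41 from HEC-1B accelerated (SE 1.35, limma adjusted p = 0.327), and CA12 did not pass. The difference from HEC-1B accelerated was -1.42 without replicate 1 of that group and -5.39 without replicate 2.

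BNIP3, a receptor that directs mitochondria to autophagy and an established HIF target, was 60.9 and 45.6 FPKM in high-potential, 110.0 and 81.6 in HEC-1B accelerated and 109.7 and 96.9 in high-to-low libraries. High-potential lay below all others, by -0.95 against high-to-low (SE 0.239, limma adjusted p = 0.118) and -0.83 against HEC-1B accelerated (SE 0.239, limma adjusted p = 0.196). Its relative BNIP3L was not lower in those cells, with 91.1 and 50.9 FPKM in high-potential, 66.3 and 53.5 in HEC-1B accelerated and 64.9 and 39.3 in high-to-low libraries. The groups overlapped for BNIP3L.

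VEGFA, the angiogenic growth factor, was 58.3 and 44.8 FPKM in high-potential, 50.8 and 45.4 in HEC-1B accelerated and 58.4 and 31.5 in high-to-low libraries, and these overlapped. ADM, the vasodilator peptide adrenomedullin, was 9.52 and 12.98 FPKM in high-potential, 17.6 and 5.80 in HEC-1B accelerated and 11.3 and 15.7 in high-to-low libraries. ANGPTL4, a secreted inhibitor of lipoprotein lipase, was 6.33 and 8.31 FPKM in high-potential, 13.1 and 5.44 in HEC-1B accelerated and 15.4 and 9.46 in high-to-low libraries. Of these secreted factors ANGPTL4 alone had high-potential libraries below both high-to-low libraries (-0.67, limma adjusted p = 0.462).

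DDIT4, a stress-induced inhibitor of mTOR signalling, was 155.5 and 55.3 FPKM in high-potential, 172.2 and 146.9 in HEC-1B accelerated and 237.0 and 125.9 in high-to-low libraries. NDRG1, a stress-responsive gene induced by hypoxia, was 3.54 and 0.863 FPKM in high-potential, 5.37 and 1.88 in HEC-1B accelerated and 3.83 and 0.744 in high-to-low libraries. For both, replicate 2 was the lower in each group and the groups overlapped. KDM3A, a histone demethylase, lay between 8.43 and 13.3 FPKM. ANKRD37, an ankyrin repeat gene induced by HIF, was 0.136 and 0.171 FPKM in high-potential, 0.451 and 0.456 in HEC-1B accelerated and 1.12 and 0.740 in high-to-low libraries; the groups did not overlap, but these values are low and the gene was below the filter.

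Other collagen-modifying enzymes did not pass. P4HA2, a catalytic subunit of collagen prolyl hydroxylase, was 28.5 and 35.7 FPKM in high-potential, 14.4 and 16.9 in HEC-1B accelerated and 17.8 and 29.2 in high-to-low libraries. The high-potential values exceeded those of HEC-1B accelerated libraries by 0.99 log2 units (SE 0.279, limma adjusted p = 0.192) but overlapped high-to-low. P4HA1, the other catalytic subunit listed, was 91.99 and 56.1 FPKM in high-potential, 69.8 and 79.3 in HEC-1B accelerated and 71.3 and 75.0 in high-to-low libraries. PLOD1, a lysyl hydroxylase outside the set, was 53.1 and 41.4 FPKM in high-potential, 50.4 and 47.8 in HEC-1B accelerated and 61.1 and 72.5 in high-to-low libraries, and did not pass (-0.50 against high-to-low, limma adjusted p = 0.2702).

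**Figure D4:**
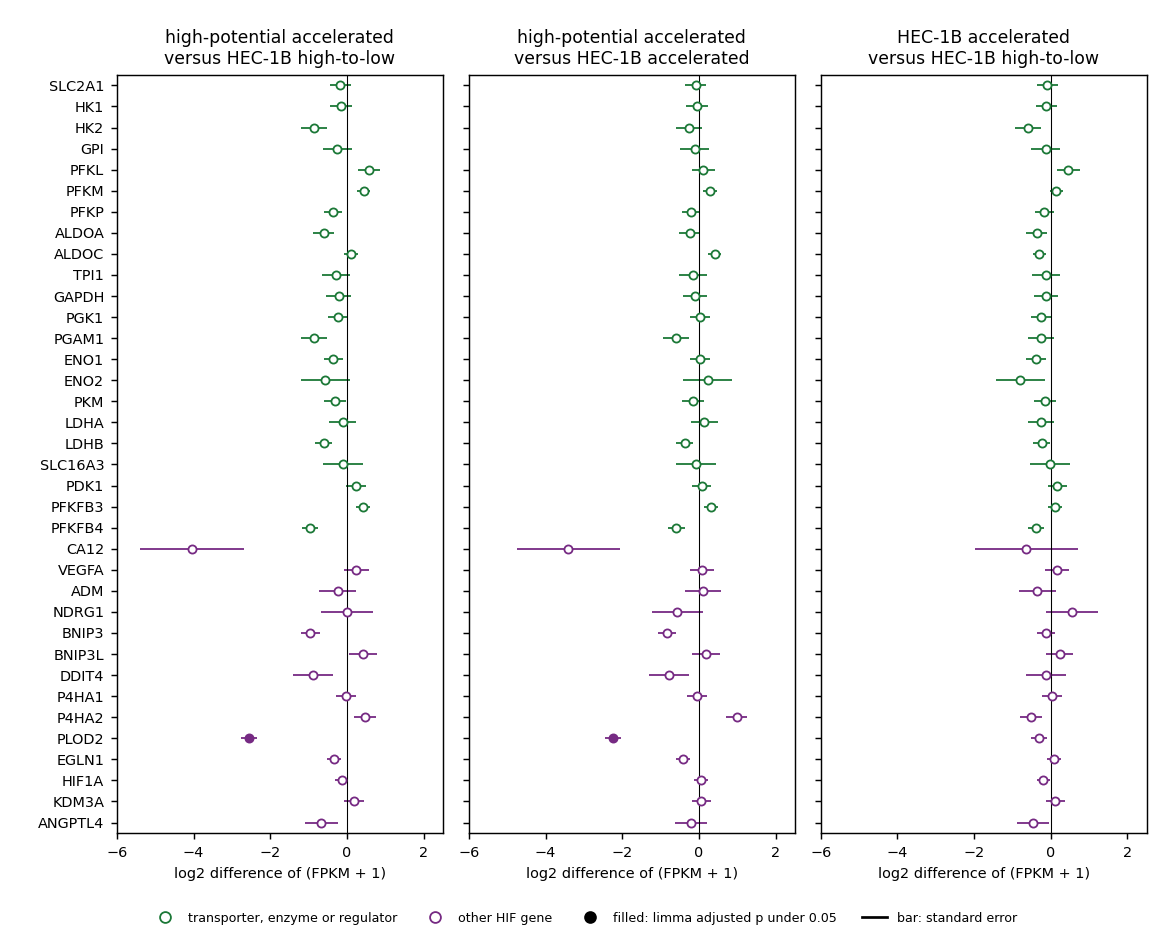
Log2 difference of FPKM + 1 for the 36 tested members (y axis) in 3 comparisons (panels), with bars for the standard error of the limma fit; green points are glycolytic genes, purple points other HIF genes, and filled points passed the adjusted threshold. PLOD2 is filled in both panels with high-potential cells on top, at -2.55 and -2.25, and the panel of HEC-1B accelerated against high-to-low has no filled point.

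Counts of members were read against all genes tested. Against high-to-low, high-potential cells had 0 glycolytic calls in limma and 1 other HIF call, lower, where 0.799% of all genes were called, 0.396% higher and 0.404% lower. At an unadjusted p under 0.05, 1 glycolytic gene was higher (PFKM) and 4 were lower (HK2, PGAM1, LDHB and PFKFB4) of 22, and 0 other HIF genes were higher and 3 lower (CA12, BNIP3 and PLOD2) of 14, against 18.4% of all genes, 7.57% higher and 10.8% lower. Libraries of these groups did not overlap for 3 glycolytic genes in the higher and 7 in the lower direction, and for 0 and 6 other HIF genes, against 24.7% and 26.4% of all genes. The median log2 difference was -0.24 for glycolytic genes (17 of 22 below 0) and -0.19 for other HIF genes (9 of 14 below 0). For all genes tested it was -0.010 (6161 of 12135 below 0). Without high-to-low replicate 2 the glycolytic median was 0.0076, and without high-potential replicate 1 it was -0.08. Without high-potential replicate 2 it was -0.41 and without high-to-low replicate 1 it was -0.47, so it depended on single libraries. Housekeeping genes, a list of 15, had a median of -0.08 with 11 below 0, and 1 of them, HPRT1, was called lower (-1.60, limma adjusted p = 0.0477). At an unadjusted p under 0.05, 3 housekeeping genes were lower. A further term was the description number, the leading digits of the number that ends each library's description. With it, the medians were -0.41 for glycolytic and -0.04 for other HIF genes. Both high-to-low libraries shared 1 description number with replicate 1 of each accelerated group, and replicate 2 of each accelerated group had the other. The term therefore cannot be fully separated from group and replicate number.

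Between high-potential and HEC-1B accelerated cells the same count was 0 glycolytic calls and 1 other HIF call, lower, against 0.494% of all genes, 0.288% higher and 0.206% lower. At an unadjusted p under 0.05 stood 1 glycolytic gene (PFKFB4, lower) and 4 other HIF genes (P4HA2 higher; CA12, BNIP3 and PLOD2 lower), against 14.3% of all genes, 5.69% higher and 8.63% lower. Libraries did not overlap for 3 glycolytic genes in the higher and 3 in the lower direction, and for 1 and 4 other HIF genes, against 21.1% and 22.3% of all genes. Medians were -0.09 for glycolytic, -0.13 for other HIF and 0.0050 for all genes. The glycolytic median turned to 0.03 without high-potential replicate 1 and 0.12 without HEC-1B accelerated replicate 2, and the other HIF median to 0.0033 without high-potential replicate 2 and 0.08 without HEC-1B accelerated replicate 1. This comparison and the one before share the high-potential libraries.

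Between HEC-1B accelerated and high-to-low cells, 0 of 36 members passed in limma and 0 had an unadjusted p under 0.05, against 0.0165% and 0.972% of all genes; of the unadjusted share, 0.429% were higher and 0.544% lower. Libraries did not overlap for 1 glycolytic gene in the higher and 5 in the lower direction, and for 1 and 3 other HIF genes, against 11.4% and 12.7% of all genes. Medians were -0.16 for glycolytic genes (18 of 22 below 0) and -0.12 for other HIF genes (8 of 14 below 0). They were -0.016 for all genes (6420 of 12135 below 0) and -0.21 for housekeeping genes (12 of 15 below 0). The glycolytic median was 0.04 without high-to-low replicate 2 and 0.05 without HEC-1B accelerated replicate 1, and the other HIF median was 0.05 without high-to-low replicate 1 and 0.10 without HEC-1B accelerated replicate 2. With the description number as a term the glycolytic median was -0.32 and the other HIF median turned to 0.12, and with quantile normalization the other HIF median was -0.0074. For the mean of both accelerated groups against high-to-low, 0 members passed in limma, against 0.0659% of all genes. HK2, PFKFB4, BNIP3 and PLOD2 (4 members) had an unadjusted p under 0.05, each lower, against 9.25% of all genes, 3.82% higher and 5.42% lower. Libraries did not overlap for 1 glycolytic gene in the higher and 4 in the lower direction, and for 0 and 2 other HIF genes, against 6.3% and 6.73% of all genes. The glycolytic median was -0.20, but 0.03 without high-to-low replicate 2 and -0.42 with the description number as a term.

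**Figure D5:**
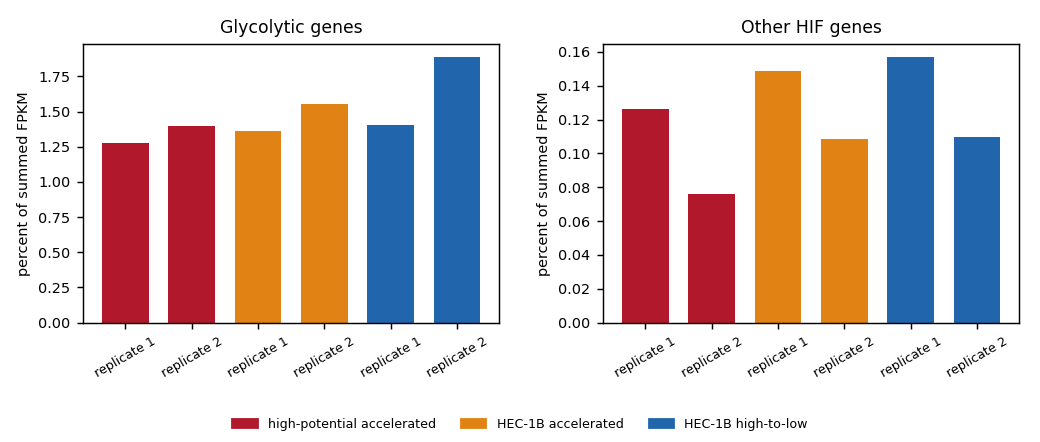
Summed FPKM of the 23 glycolytic genes (left) and of the 17 other HIF genes (right) as a percent of all FPKM of a library, 1 bar per library, with colours for groups. In every group replicate 2 has the taller bar on the left and the shorter bar on the right, with 1.88% for glycolytic genes in high-to-low replicate 2 as the tallest.

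Spread within groups was as large as the differences between them for most members, and it ran in opposite directions in the classes. Glycolytic genes held 1.27 and 1.40% of all FPKM in high-potential, 1.36 and 1.55% in HEC-1B accelerated and 1.41 and 1.88% in high-to-low libraries. Other HIF genes held 0.126 and 0.0760% in high-potential, 0.149 and 0.108% in HEC-1B accelerated and 0.157 and 0.110% in high-to-low libraries. Replicate 2 thus had the larger glycolytic and the smaller HIF share in all 3 groups. Among members with a mean of at least 1 FPKM, 10 of 22 glycolytic genes were higher in replicate 2 in all 3 groups (SLC2A1, GPI, TPI1, GAPDH, PGK1, PGAM1, PKM, LDHA, LDHB and SLC16A3) and 1 was lower (ENO2). Of 14 other HIF genes, 1 was higher (P4HA2) and 8 were lower (CA12, VEGFA, NDRG1, BNIP3, BNIP3L, DDIT4, PLOD2 and KDM3A). Over 12002 tested genes other than small RNA genes, 24.9% were higher and 24.8% lower in replicate 2 throughout. ACTB was likewise higher in replicate 2, at 3652 and 5033 FPKM in high-potential, 3782 and 4990.2 in HEC-1B accelerated and 4075 and 6181 in high-to-low libraries. Small RNA genes held 9.83 and 18.4% of all FPKM in high-potential, 15.3 and 13.4% in HEC-1B accelerated and 14.2 and 8.72% in high-to-low libraries, which did not follow the replicate number. No label calls the number a pairing or a batch.

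Wider lists of the same pathways held 1 call each besides, in high-potential against high-to-low cells, where 0.799% of all genes were called. Of 40 further genes of glucose metabolism, 27 were tested, and of 50 further genes of the HIF pathway, 40 were tested. PCK1, a cytosolic enzyme of gluconeogenesis, had 3.16 and 2.18 FPKM in high-potential and 0.0683 and 0 FPKM in high-to-low libraries. It was called higher in that comparison (log2 difference 1.82, SE 0.263, limma adjusted p = 0.0496). In HEC-1B accelerated libraries PCK1 had 0.197 and 0.0403 FPKM. It therefore passed the filter only through the high-potential libraries where it was high, and its call carries little weight. The call of the HIF list was IGFBP3, which encodes a carrier of insulin-like growth factors, with 206.4 and 388.9 FPKM in high-potential and 4.75 and 6.22 FPKM in high-to-low libraries, higher by 5.46 on the log2 scale (limma adjusted p = 0.0237), and 0 genes of either list were called lower. Against HEC-1B accelerated cells 0.494% of all genes were called. There IGFBP3 passed (4.80, limma adjusted p = 0.0348) and PCK1 did not (1.70, limma adjusted p = 0.0700). In the comparisons of HEC-1B accelerated, and of the mean of both accelerated groups, with high-to-low, 0 genes of the lists passed in limma. At an unadjusted p under 0.05 the glucose list had 9 genes and the HIF list 14 for high-potential against high-to-low, where 18.4% of all genes stood there. For high-potential against HEC-1B accelerated these were 9 and 11, against 14.3%. They were 0 and 1 for HEC-1B accelerated against high-to-low, against 0.972%, and 4 and 6 for the mean of both accelerated groups, against 9.25%. The HIF partner subunit ARNT and the ubiquitin ligase subunit VHL, which recognises hydroxylated HIF1A, lay between 17.2 and 23.2 and between 9.99 and 15.7 FPKM. EPAS1, the alternative alpha subunit, did not exceed 1.91 FPKM.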

How the data were processed

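The samples were 6 HEC-1B libraries. The labels' protocols name the miRNeasy kit for total RNA, SMART-Seq v4 for cDNA and Nextera for libraries; strand is not recorded, so reads of overlapping or antisense genes cannot be told apart. The authors deposited FPKM per gene symbol, 1 table per library. Tools named in the submitters' processing notes are TopHat2 2.0.13 and Cuffnorm 2.2.1, with build hg19; the sources used here give neither annotation nor scaling.

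Since FPKM are not counts, limma 3.58.1 (R 4.3.3) was fitted to log2(FPKM + 1) with a variance trend and 3 residual degrees of freedom, over 12135 genes reaching 1 FPKM in 2 libraries or more. The pseudocount understates changes of low genes. The step was tested on simulated data. Relative depth came from values under 0.3 FPKM that share a ratio within 3%. Comparisons were of each accelerated group, and of their mean, with high-to-low, and of the accelerated groups with each other. The members and lists were chosen with earlier results of these data known. Values in all libraries are given for called members, for the 8 glycolytic and the 8 other HIF genes of widest range, for the most abundant gene of each step with several listed genes and for HIF1A, EGLN1, EGLN3 and VEGFA; LDHB, BNIP3L, P4HA1, ANKRD37 and PLOD1 were added after their values were seen. Alternatives (18 settings) changed the pseudocount, filter, scaling, variance model, model terms and libraries. Promoters are RefSeq sequences (GRCh38.p14) matched by symbol.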

Additional observations from a re-analysis of the deposited data

How the results depend on the processing

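Log2 differences of members with an unadjusted p under 0.05 kept their direction in the 18 settings tried, 17 for the mean of the accelerated groups. In fits that leave a group with 1 library, that library is assumed to vary like the others. Calls of PLOD2 held in all 12 settings that leave out no library of the groups compared. Their limma adjusted p ran from 0.00325 to 0.0308 against high-to-low and from 0.00493 to 0.0416 against HEC-1B accelerated. Without 1 library they ranged from 0.0203 to 0.116 and from 0.0406 to 0.154. Numbers of genes called depended on the settings, through causes that were not tested. High-potential against high-to-low gave 97 genes, but 54 with a pseudocount of 0.1, 39 with no filter, 56 with a filter on the mean, 54 with the description number as a term, and 13 to 115 without 1 library. High-potential against HEC-1B accelerated gave 60, but 31 with a pseudocount of 0.1, 38 with no filter, 105 with the description number, 39 with the compared libraries alone and 14 to 38 without 1 library. HEC-1B accelerated against high-to-low gave 2, but 4 with a pseudocount of 0.1, 0 with small RNA genes left out (139 at an unadjusted p under 0.05), 7 with the description number, 7 with the compared libraries alone and 4 to 7 without 1 library. The mean of the accelerated groups gave 8, but 3 with no filter, 1 with small RNA genes left out, 15 with the description number and 3 to 15 without 1 library. The split of calls into higher and lower also moved, as with no filter, where 30 were higher and 9 lower for high-potential against high-to-low.

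With the replicate number as a block, 944, 546, 2 and 17 genes were called in these comparisons in that order (301 higher and 643 lower in the first, 186 and 360 in the second). In that replicate block fit BNIP3, CA12, PFKFB4 and PGAM1 were called lower against high-to-low, BNIP3 and CA12 lower and P4HA2 higher against HEC-1B accelerated, and PLOD2 lower for the mean of the accelerated groups (limma adjusted p = 0.0282). The number is no stated pairing; differences between replicates 2 and 1 correlated across genes at 0.187, 0.158 and 0.281 between groups. The FPKM tables give depth only relative to each other, which limits what can be said of members near 0, such as CA9 and SLC2A3.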

Other observations

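Several tested members shared an order of the 6 libraries, seen after the values were known and not tested. For 8 members the 3 lowest libraries were the 3 numbered replicate 1, all of them glycolytic (GAPDH, GPI, LDHA, PGK1, PKM, SLC16A3, SLC2A1 and TPI1), where 11.6% of all tested genes had that order. For 6 members, ENO2 and the HIF genes BNIP3L, DDIT4, KDM3A, NDRG1 and VEGFA, the 3 lowest were the replicate 2 libraries, against 11% of all genes. For 8 others, ALDOA, HK2, PFKFB4, ANGPTL4, BNIP3, CA12, HIF1A and PLOD2, the 3 lowest were both high-potential libraries and HEC-1B accelerated replicate 2, against 12.3% of all genes. The last 3 libraries are also those with ALDH1A1 at 352.5, 303.6 and 316.9 FPKM, where the other 3 had 26.7, 28.4 and 9.44 FPKM. Part of that order follows from the differences of high-potential cells already described, and no groups were formed from it. For HIF1A the gap was narrow, with 114.7 FPKM in high-potential replicate 2 and 117.0 in HEC-1B accelerated replicate 1.

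Further genes of glucose metabolism stood apart in high-potential libraries about as often as all genes did. Against high-to-low, 6 of the 27 tested genes of that list were higher without overlap and 8 lower, where 24.7% and 26.4% of all genes were. BSG, the chaperone of lactate transporters, was 1266 and 877.4 FPKM in high-potential, 677.4 and 552.2 in HEC-1B accelerated and 722.8 and 575.1 in high-to-low libraries. SLC2A6, a glucose transporter family member of intracellular membranes, was 34.8 and 47.7 FPKM in high-potential, 16.3 and 29.1 in HEC-1B accelerated and 21.6 and 24.9 in high-to-low libraries. TKT, the transketolase of the pentose phosphate pathway, was 79.0 and 82.8 FPKM in high-potential, 134.8 and 170.3 in HEC-1B accelerated and 143.2 and 141.9 in high-to-low libraries. BSG, SLC2A6 and TKT were chosen after their values were seen, with limma adjusted p between 0.110 and 0.282 in the comparisons of high-potential cells. PDHB, PGM1, HKDC1 and PDP2 were likewise apart without passing, with log2 differences from high-to-low of -1.02, -0.94, -0.71 and -0.63.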
